A study of Homo sapiens with 12 samples.

Results

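The serine synthesis and one-carbon enzymes are described here through the mRNAs of 10 genes, PHGDH, PSAT1, PSPH, SHMT1, SHMT2, MTHFD1, MTHFD2, MTHFD1L, MTHFD2L and ALDH1L2, which were chosen by symbol. All 10 were found among the 58735 gene identifiers of the count table, and all 10 were among the 16891 genes with enough counts to be tested. RNA-seq was performed on FDX2-iKO ES2 cells, a human ovarian carcinoma line in which the endogenous FDX2 gene was knocked out and an editing-resistant FDX2-HA was kept on by doxycycline (Doxy) through the TetON system. FDX2 is a mitochondrial ferredoxin of iron-sulfur cluster assembly, and withdrawal of Doxy leads to FDX2 loss. The 4 conditions, each with 3 libraries described as biological replicates, were 20% O2 + Doxy, 20% O2 wo Doxy, 3% O2 + Doxy and 3% O2 wo Doxy. Cells at 20% O2 were grown for 6 days, and cells at 3% O2 were moved there for 3 days after 4 days at 20% O2, so that oxygen and the longer total culture cannot be told apart. Every condition carries the edited FDX2 gene and the transgene, so Doxy itself and FDX2 loss cannot be told apart either. The study obtained 2 such clones and used the first unless it states otherwise, and no other is stated for these libraries, so the values describe 1 clone.

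Cells make serine from the glycolytic intermediate phosphoglycerate in consecutive steps catalysed by PHGDH, PSAT1 and PSPH. The SHMT enzymes then cleave serine into glycine and pass its carbon to tetrahydrofolate, and the MTHFD and ALDH1L enzymes oxidise or release that carbon as formate, carbon dioxide and NADPH for purine, thymidylate and redox metabolism. Much of this pathway runs in parallel in mitochondria and cytosol, and the transcription factor ATF4 is known to activate several of its genes when mitochondria are impaired.

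Between 24958386 and 34313637 counts per library were assigned to genes, and levels are given as counts per 1000000 (CPM) after scaling by edgeR's TMM method. FDX2 itself (ENSG00000267673, chr19:10310045-10316015, GRCh38, minus strand) could not be used to check the labels. It had 5, 2 and 6 counts at 20% O2 + Doxy, 9, 13 and 4 at 20% O2 wo Doxy, 2, 4 and 12 at 3% O2 + Doxy and 7, 7 and 5 at 3% O2 wo Doxy, and 70.9% of its exonic bases overlap other genes on the same strand. The keratins KRT7, KRT8 and KRT18 and the Mullerian factor PAX8 were at 1 CPM or more in every library, and EPCAM, CDH1 and MUC16 were at or near 0 (at most 0.119 CPM). VIM reached 2065 to 4176 CPM, the summed leukocyte markers stayed at or below 0.322 CPM, and of the endothelial markers CDH5 lay between 22.1 and 51.4 CPM while PECAM1 and VWF were below 0.2 CPM. After FDX2 loss at 20% O2 the epithelial markers KRT18 (log2 fold change -0.55) and KRT7 (-0.40) and the mesenchymal markers VIM (-0.49) and COL1A2 (-1.45, at most 0.754 CPM) fell, with adjusted p = 0.00425, 0.0137, 0.00223 and 0.00565 by edgeR. The mesenchymal marker CDH2 rose after FDX2 loss at 20% O2 (0.29) and at 3% O2 (0.26), and CDH5 rose at 3% O2 (0.49), with adjusted p = 0.0046, 0.0356 and 0.0305 by edgeR. Without Doxy, KRT8 (0.82), PAX8 (0.79) and KRT18 (0.42) were higher at 3% than at 20% O2 (edgeR, adjusted p = 0.00637, 0.00637 and 0.0246). So were COL1A2 (2.12), COL1A1 (0.93), VIM (0.54) and CDH5 (0.77), with adjusted p = 0.000994, 0.00387, 0.00242 and 0.00114 by edgeR. With Doxy PAX8 alone of the listed markers passed, higher at 3% O2 (0.86, edgeR, adjusted p = 0.0194). The part of these shifts in the members' values was not tested. One library stood apart, replicate 1 of 3% O2 wo Doxy, in which 1.20% of the counts fell on antisense genes, against 0.344% to 0.559% in the other 11. Libraries also differed in how their counts followed GC content. At 20% O2 wo Doxy the slope was -0.10, -0.09 and -0.15 in log2 CPM per 10 percentage points. At 3% O2 wo Doxy it was 0.03, 0.18 and 0.06. With Doxy both signs occurred at each oxygen level. Transcript GC content was 36.4% in MTHFD2L, 41.4% in MTHFD2, 42.1% in ALDH1L2, 42.3% in PSAT1, 47.6% in MTHFD1 and 49.8% in PSPH. It was 51.9% in MTHFD1L, 52.3% in PHGDH, 52.6% in SHMT1 and 57.0% in SHMT2. Fits with each library's GC trend removed are given beside several members. For ALDH1L2, PSAT1 and MTHFD2 this fit is among the 18 alternatives whose ranges are given at the end for the difference of the responses.

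Sequences upstream of the members were searched for the motif TGATGNAAN (N for any base), the core of the C/EBP-ATF response element that ATF4 can bind, and for the E-box CACGTG that MYC family factors can bind. RefSeq windows from 250 bases before to 50 bases after each start site (GRCh38.p14) were searched on both strands. Of 35116 such windows, 3.61% held TGATGNAAN and 7.26% held CACGTG, which reads the same on both strands. The 11 windows that matched 7 members are those of PHGDH, PSAT1, SHMT1, MTHFD1, MTHFD2, MTHFD1L (4 windows) and MTHFD2L (2 windows). No window matched PSPH, SHMT2 or ALDH1L2, so these members were not searched. A TGATGNAAN match was found in 3 windows, all of MTHFD1L and sharing 1 site, and CACGTG in these 3 and in the window of MTHFD1. The first 2 sequences hold neither motif and are shown because PSAT1 and MTHFD2, with ALDH1L2, are the members whose response to FDX2 loss differed between oxygen levels. The other 2 show the matches found, with the motif in capitals.
PSAT1 (chr9:78296875-78297124, plus strand, upstream of the start site): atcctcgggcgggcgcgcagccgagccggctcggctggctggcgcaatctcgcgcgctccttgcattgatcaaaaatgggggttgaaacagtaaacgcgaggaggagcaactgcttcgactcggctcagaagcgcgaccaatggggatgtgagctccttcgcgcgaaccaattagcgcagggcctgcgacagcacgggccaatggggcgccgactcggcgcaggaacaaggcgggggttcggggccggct
MTHFD2 (chr2:74198365-74198560, plus strand, upstream of the start site): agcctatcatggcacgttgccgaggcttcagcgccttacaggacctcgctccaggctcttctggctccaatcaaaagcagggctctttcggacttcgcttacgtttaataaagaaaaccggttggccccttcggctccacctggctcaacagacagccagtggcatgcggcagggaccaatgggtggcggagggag
MTHFD1L (chr6:150866346-150866375, plus strand, within an annotated MTHFD1L exon): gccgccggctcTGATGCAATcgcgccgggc
MTHFD1 (chr14:64388326-64388355, plus strand, at the start site): ccagtccctaagCACGTGggttgggttgtc
These matches are descriptions of the letters in the windows, and binding was not measured.

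The first question was how FDX2 loss at 20% O2 changed these mRNAs. Of the 10 members, 6 changed, with 3 higher (ALDH1L2, PSAT1 and MTHFD2) and 3 lower (SHMT1, MTHFD1 and MTHFD1L) without Doxy. Over all tested genes the share changed was 35.3%, with 17.6% higher and 17.7% lower, by edgeR's quasi-likelihood test at a Benjamini-Hochberg adjusted p under 0.05. The replicates with and without Doxy did not overlap for 8 of the 10 members, and for 52.3% of all tested genes. The median log2 fold change of the members was 0.19, beside 0.01 over all tested genes. In a bulk library a lower level can come from fewer cells that carry an mRNA or from less of it per cell, which cannot be told apart.

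Within the serine synthesis branch, PSAT1 was the member that changed. PHGDH (ENSG00000092621, chr1:119648411-119744226, plus strand), which catalyses the first committed step, stood at 385, 324 and 291 CPM with Doxy and at 372, 381 and 356 CPM without Doxy. The groups overlapped, since replicate 1 with Doxy was above all libraries without Doxy. The log2 fold change of PHGDH was 0.15 with a 95% interval of -0.06 to 0.35 (edgeR's quasi-likelihood test, Benjamini-Hochberg adjusted p = 0.247). Without 20% O2 + Doxy replicate 1 it was 0.25 (edgeR, adjusted p = 0.021). This replicate also had the steepest rise of counts with GC content in its condition, 0.17 in log2 CPM per 10 percentage points against -0.06 and -0.13 in the other 2. With each library's GC trend removed, the log2 fold change of PHGDH was 0.15 (edgeR, adjusted p = 0.083).

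PSAT1 (ENSG00000135069, chr9:78297143-78330093, plus strand), the aminotransferase of the second step, rose with FDX2 loss. It stood at 150, 158 and 170 CPM with Doxy and at 216, 225 and 225 CPM without Doxy. No library of one group reached the other, and the log2 fold change was 0.48 (SE 0.058, edgeR, adjusted p = 0.000107), or 39.1% higher. PSPH (ENSG00000146733, chr7:56011051-56051604, minus strand), the phosphatase of the last step, stood at 45.5, 40.5 and 42.1 CPM with Doxy and at 50.0, 49.2 and 51.4 CPM without Doxy. Its groups did not overlap either, but with a log2 fold change of 0.23 (SE 0.084) it did not pass the test (edgeR, adjusted p = 0.0516). It passed when 20% O2 + Doxy replicate 1 was left out (log2 fold change 0.27, edgeR, adjusted p = 0.0358), and also with DESeq2's size factors, with the stricter count filter and in fits to the 6 libraries alone.

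Among the serine hydroxymethyltransferases, the cytosolic SHMT1 fell and the mitochondrial SHMT2 showed no detectable change. SHMT1 (ENSG00000176974, chr17:18327860-18363563, minus strand) stood at 62.0, 59.0 and 53.3 CPM with Doxy and at 47.4, 46.3 and 46.3 CPM without Doxy. All 3 libraries without Doxy were lower, with a log2 fold change of -0.31 (SE 0.066, edgeR, adjusted p = 0.0037). SHMT2 (ENSG00000182199, chr12:57229327-57234935, plus strand) stood at 368, 339 and 307 CPM with Doxy and at 334, 344 and 333 CPM without Doxy. The groups overlapped, and the 95% interval of the log2 fold change was -0.13 to 0.13 (edgeR, adjusted p = 0.969). Its sign turned under several alternatives, with 0.09 after the GC correction (edgeR, adjusted p = 0.161).

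The folate enzymes moved in both directions. MTHFD2 (ENSG00000065911, chr2:74198562-74217565, plus strand), the mitochondrial dehydrogenase and cyclohydrolase, stood at 181, 194 and 189 CPM with Doxy and at 245, 250 and 257 CPM without Doxy. It rose with no overlap between groups, by a log2 fold change of 0.41 (SE 0.059, edgeR, adjusted p = 0.000319). MTHFD1 (ENSG00000100714, chr14:64388031-64463457, plus strand), the cytosolic enzyme that combines dehydrogenase, cyclohydrolase and synthetase, stood at 286, 280 and 274 CPM with Doxy and at 227, 234 and 222 CPM without Doxy. It fell in all 3 libraries, with a log2 fold change of -0.30 (SE 0.055, edgeR, adjusted p = 0.00173). About 33.2% of the exonic bases of MTHFD2 and 11.0% of those of MTHFD1 are shared with genes on the opposite strand, and the strand setting of the counting is not given in the sources used here. The antisense gene with the most counts at MTHFD2, AC006030.1, had 11 to 437 counts per library, beside 3795 to 7905 for MTHFD2.

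MTHFD1L (ENSG00000120254, chr6:150865549-151101887, plus strand), the mitochondrial synthetase that releases formate, stood at 77.9, 73.8 and 68.8 CPM with Doxy and at 64.5, 66.5 and 63.6 CPM without Doxy. It was lower without overlap, but by little, with a log2 fold change of -0.18 (SE 0.065) at the edge of the threshold (edgeR, adjusted p = 0.0499). The call was lost when replicate 1 or 2 of 20% O2 + Doxy or replicate 1 or 3 of 20% O2 wo Doxy was left out (edgeR, adjusted p between 0.0801 and 0.107). MTHFD2L (ENSG00000163738, chr4:74114174-74303099, plus strand), a lower-expressed relative of MTHFD2, stood at 13.4, 16.5 and 17.5 CPM with Doxy and at 18.1, 18.9 and 20.2 CPM without Doxy. Its groups were separate by a small gap, and the log2 fold change of 0.27 (SE 0.11) did not pass the test (edgeR, adjusted p = 0.0748). It passed without 20% O2 + Doxy replicate 3 (log2 fold change 0.35, edgeR, adjusted p = 0.0443) and, with the smaller value of 0.17, after the GC correction (edgeR, adjusted p = 0.0197).

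ALDH1L2 (ENSG00000136010, chr12:105019784-105084577, minus strand), the mitochondrial dehydrogenase that turns formyl-tetrahydrofolate into carbon dioxide with formation of NADPH, changed most among the members. It stood at 13.3, 13.3 and 15.4 CPM with Doxy and at 33.1, 33.6 and 35.1 CPM without Doxy. Every library without Doxy was above every library with Doxy, and ALDH1L2 was 2.42 times higher (log2 fold change 1.28, SE 0.068, edgeR, adjusted p = 4.04e-07). It was the only member past a 2-fold change in this comparison. Its cytosolic relative ALDH1L1 had 0 counts in each of the 12 libraries, which allows up to 3 counts per library, counting error only.

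The second question was whether FDX2 loss acted on the same mRNAs at 3% O2. Of the 10 members 3 changed, all lower without Doxy (PSAT1, ALDH1L2 and MTHFD1L), where 7.31% of all tested genes changed, 4.2% higher and 3.11% lower. The replicates did not overlap for 6 members and for 24.6% of all tested genes. The median log2 fold change of the members was -0.14, beside 0.04 over all tested genes. The count of 3 was 1 or 2 with any 1 of the 6 libraries left out (1 without 3% O2 + Doxy replicate 2 or any of the 3% O2 wo Doxy replicates), and 0 in fits to the 6 libraries alone.

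PSAT1 stood at 153, 145 and 145 CPM with Doxy at 3% O2 and at 119, 112 and 123 CPM without Doxy. The groups did not overlap, and PSAT1 fell with a log2 fold change of -0.33 (SE 0.059, edgeR, adjusted p = 0.00802). With each library left out in turn, the adjusted p of this fall by edgeR was 0.0119 to 0.0367, and in a fit to the 6 libraries alone it was 0.0629. ALDH1L2 stood at 16.3, 17.1 and 16.2 CPM with Doxy and at 13.6, 13.2 and 14.5 CPM without Doxy. It was lower with no overlap (log2 fold change -0.26, SE 0.069, edgeR, adjusted p = 0.0426), but leaving out any 1 of the 6 libraries moved the adjusted p to between 0.0503 and 0.145. MTHFD1L stood at 69.5, 74.6 and 79.9 CPM with Doxy and at 60.3, 64.5 and 64.1 CPM without Doxy. Its groups did not overlap (log2 fold change -0.25, SE 0.065, edgeR, adjusted p = 0.0444), and the call held without 3% O2 + Doxy replicate 1 alone among the 6 (edgeR, adjusted p between 0.0743 and 0.125 without any other).

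MTHFD2 stood at 186, 180 and 160 CPM with Doxy at 3% O2 and at 158, 151 and 156 CPM without Doxy. The gap between the groups was narrow, and the log2 fold change was -0.18 (SE 0.060, edgeR, adjusted p = 0.094). Without 3% O2 + Doxy replicate 3, the lowest of its group, the log2 fold change of MTHFD2 was -0.24 (edgeR, adjusted p = 0.0141), and DESeq2 on all libraries also called it lower (-0.21, adjusted p = 0.0202). SHMT2 stood at 331, 344 and 348 CPM with Doxy and at 311, 311 and 305 CPM without Doxy. These groups did not overlap, but the log2 fold change of -0.14 (SE 0.059) did not pass the test (edgeR, adjusted p = 0.183), while DESeq2 and the GC correction gave adjusted p = 0.0439 and 0.0258. MTHFD1 stood at 252, 244 and 274 CPM with Doxy and at 245, 230 and 223 CPM without Doxy. Its groups overlapped, with a log2 fold change of -0.14 (SE 0.055, edgeR, adjusted p = 0.156), and DESeq2 gave adjusted p = 0.0257.

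For the 4 other members the 95% interval of the log2 fold change bounded what could be missed. PHGDH stood at 308, 309 and 356 CPM with Doxy and at 310, 320 and 299 CPM without Doxy, with an interval of -0.27 to 0.14. Its highest library, 3% O2 + Doxy replicate 3, had the steepest rise of counts with GC content among the 12 (0.19 in log2 CPM per 10 percentage points). The intervals were -0.15 to 0.22 for PSPH and -0.22 to 0.07 for SHMT1, and in both the groups overlapped. MTHFD2L stood at 15.8, 15.3 and 12.3 CPM with Doxy and at 17.3, 17.4 and 17.2 CPM without Doxy. It was higher without overlap, as at 20% O2, but with a log2 fold change of 0.26 (SE 0.11) it did not pass the test (edgeR, adjusted p = 0.185). After the GC correction the log2 fold change of MTHFD2L was 0.32 (edgeR, adjusted p = 0.00229).

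The difference between the responses to FDX2 loss at 3% and at 20% O2 was then tested itself, as an interaction term. It passed for 3 members, ALDH1L2, PSAT1 and MTHFD2, all with a lower response at 3% O2, where 7.29% of all tested genes passed, 3.21% with a higher and 4.08% with a lower response. For ALDH1L2 the log2 fold change at 3% O2 minus that at 20% O2 was -1.54 (95% interval -1.75 to -1.33, edgeR, adjusted p = 1.98e-05). For PSAT1 the difference was -0.80 (95% interval -0.98 to -0.62, edgeR, adjusted p = 0.000531). For MTHFD2 the difference was -0.59 (95% interval -0.78 to -0.41, edgeR, adjusted p = 0.00257). In these 3 genes the sign of the fold change was positive at 20% O2 and negative at 3% O2, though the value of MTHFD2 at 3% O2 passed by DESeq2 and not by edgeR. Without the library rich in antisense counts these differences were -1.53, -0.81 and -0.61 (edgeR, adjusted p = 0.000112, 0.00137 and 0.00491 in the same order).

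For the 7 other members a difference between the responses was not detectable. SHMT1 had the largest of them toward a smaller fall at 3% O2, 0.24 (95% interval 0.03 to 0.45, edgeR, adjusted p = 0.15), which passed without 3% O2 + Doxy replicate 3 (0.30, edgeR, adjusted p = 0.0479) and after the GC correction (0.22, edgeR, adjusted p = 0.0333). The difference of SHMT2 was -0.14 (edgeR, adjusted p = 0.359) and passed after the GC correction (-0.27, edgeR, adjusted p = 0.0191). MTHFD1L, which was lower without Doxy at both oxygen levels, had a difference of -0.07 with a 95% interval of -0.27 to 0.14.

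The comparison of 3% with 20% O2 reads the same means from the other side, as it uses the same 12 libraries. With Doxy, 0 of the 10 members passed edgeR's quasi-likelihood test, where 2.02% of all tested genes changed, 1.63% higher and 0.385% lower. The lowest unadjusted p-values among the members were those of ALDH1L2 (edgeR, unadjusted p = 0.00532) and MTHFD1 (edgeR, unadjusted p = 0.043), and neither passed after adjustment. Groups did not overlap for 1 member and for 15.4% of all tested genes. ALDH1L2 was the member without overlap, with a log2 fold change of 0.24 (SE 0.069, edgeR, adjusted p = 0.123). DESeq2 called none of the 10, and the GC correction 1, ALDH1L2 (log2 fold change 0.26, edgeR, adjusted p = 0.0323).

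Without Doxy, 4 members differed between oxygen levels, with 3 lower at 3% O2 (ALDH1L2, PSAT1 and MTHFD2) and 1 higher (SHMT1). Among all tested genes 25.8% differed, 13.9% higher and 11.9% lower. Groups did not overlap for 8 members and for 49.4% of all tested genes. ALDH1L2 was at 33.95 ± 1.03 CPM at 20% O2 and at 13.8 ± 0.661 CPM at 3% O2 (SD, n = 3), and its log2 fold change was -1.30 (SE 0.068, edgeR, adjusted p = 1.62e-06). PSAT1 was at 222 ± 5.08 and at 118 ± 5.93 CPM (SD, n = 3), and its log2 fold change was -0.91 (SE 0.059, edgeR, adjusted p = 5.4e-06). MTHFD2 was at 251 ± 5.80 and at 155 ± 3.81 CPM (SD, n = 3), and its log2 fold change was -0.69 (SE 0.060, edgeR, adjusted p = 2.71e-05). At 3% O2 wo Doxy every library of PSAT1 and MTHFD2 was below every library with Doxy at either oxygen level, while ALDH1L2 overlapped with 20% O2 + Doxy.

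SHMT1 was higher at 3% O2, at 56.4 ± 1.66 against 46.7 ± 0.638 CPM (SD, n = 3). Its log2 fold change of 0.27 passed the test (SE 0.066, edgeR, adjusted p = 0.0134), and missed the threshold without 3% O2 wo Doxy replicate 2 (log2 fold change 0.25, edgeR, adjusted p = 0.0539). PHGDH did not pass the test at a log2 fold change of -0.26 (SE 0.093, edgeR, adjusted p = 0.0649). The labels number the replicates but do not say that they are paired. With the replicate number as a block in the 6 libraries PHGDH passed (-0.27, edgeR, adjusted p = 0.00869), as it did in the 6 libraries without the block (edgeR, adjusted p = 0.00552). It passed in 7 of 15 alternatives, also with DESeq2's size factors, the stricter count filter, DESeq2's test and the GC correction with and without the block (adjusted p between 0.00362 and 0.0433), and in none with a library left out (edgeR, adjusted p between 0.0756 and 0.157). SHMT2 had a log2 fold change of -0.12 (SE 0.059, edgeR, adjusted p = 0.145) and passed with the block in the 6 libraries (-0.14, edgeR, adjusted p = 0.0482) and without it (edgeR, adjusted p = 0.0265). SHMT2 also passed after the GC correction (-0.30, edgeR, adjusted p = 0.000789). The block itself changed no member's call, in the 12 or in the 6 libraries. MTHFD1 and MTHFD1L overlapped between oxygen levels, and PSPH and MTHFD2L were lower without overlap at log2 fold changes of -0.13 and -0.14 that did not pass the test (edgeR, adjusted p = 0.272 and 0.366). The direction of MTHFD2L turned after the GC correction, to 0.10 without and 0.08 with the block (edgeR, adjusted p = 0.186 and 0.359).

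Ratios of counts between mitochondrial and cytosolic enzymes do not depend on the scaling of the libraries. The exact permutation test of 3 against 3 libraries, two-sided, cannot give a p under 0.1, so overlap and size are given. MTHFD2 had 0.634, 0.692 and 0.691 counts per count of MTHFD1 at 20% O2 + Doxy and 1.08, 1.07 and 1.16 at 20% O2 wo Doxy. The ratio was 1.64 times higher without Doxy, with no overlap (exact permutation p = 0.1). At 3% O2 the ratio of MTHFD2 to MTHFD1 was 0.741, 0.741 and 0.583 with Doxy and 0.644, 0.656 and 0.700 without Doxy, and the groups overlapped (exact permutation p = 0.8). SHMT2 had 5.93, 5.75 and 5.76 counts per count of SHMT1 at 20% O2 + Doxy and 7.03, 7.43 and 7.19 at 20% O2 wo Doxy. This ratio was 1.24 times higher without Doxy at 20% O2, with no overlap (exact permutation p = 0.1), and at 3% O2 its means of 5.76 with and 5.49 without Doxy belonged to overlapping groups (exact permutation p = 0.2).

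The ratio of MTHFD1L to MTHFD1 was 0.262 ± 0.0105 with and 0.285 ± 0.00106 without Doxy at 20% O2 (SD, n = 3), which did not overlap (exact permutation p = 0.1). At 3% O2 it was 0.291 ± 0.0149 with and 0.271 ± 0.0222 without Doxy, which overlapped (exact permutation p = 0.4). The mitochondrial pair MTHFD2 and MTHFD2L was added after the values were seen. Its ratio was 12.05 ± 1.36 with and 13.2 ± 0.429 without Doxy at 20% O2, and 12.2 ± 0.670 with and 8.95 ± 0.251 without Doxy at 3% O2 (SD, n = 3). The groups overlapped at 20% O2 and not at 3% O2, where the ratio was lower without Doxy.

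Levels between genes were compared per length, as CPM per kilobase of the principal transcript. At 20% O2 + Doxy SHMT2 was at 133 ± 11.97 and PHGDH at 129 ± 18.5 CPM per kilobase (SD, n = 3), and their libraries overlapped. MTHFD1 followed at 89.3 ± 1.96, PSAT1 at 73.0 ± 4.60 and MTHFD2 at 42.2 ± 1.43, each separate from its neighbours. SHMT1 was at 23.6 ± 1.79, MTHFD1L at 20.4 ± 1.26 and PSPH at 19.6 ± 1.16, and the last 2 overlapped, while SHMT1 was separate from MTHFD1L by less than its SD. MTHFD2L at 6.86 ± 0.913 and ALDH1L2 at 1.86 ± 0.156 were lowest. At 20% O2 wo Doxy PSAT1 reached 101 ± 2.32 CPM per kilobase and exceeded MTHFD1 at 72.6 ± 1.83. The order depends on the length used, since over all annotated exonic bases PSAT1 came 1st and PHGDH 4th at 20% O2 + Doxy.

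The genes with the most similar profile over the 12 libraries were sought among 10765 genes, by the root-mean-square difference of centred log2 CPM. For PSAT1 the nearest gene was another member, MTHFD2, at 0.096, followed by PLS1 at 0.099 and GCH1 at 0.11, where the profile of PSAT1 itself varied by 0.33 around its mean. For MTHFD2 the nearest were ZC3H8 at 0.064, LARS1 at 0.067 and GCH1 at 0.070. For ALDH1L2, which varied by 0.54, they were LACC1 at 0.17, CEBPG at 0.17 and KDM7A at 0.18. For MTHFD1 they were RAD51D, DDX55 and UCK2 (0.034 to 0.045), for SHMT1 ERCC3, ACACA and EIF3B (0.032 to 0.034), and for MTHFD1L FADS1, ZNFX1 and ADPGK (0.041 to 0.047). For SHMT2 they were EDC3, POLDIP2 and NFS1 (0.044 to 0.046), for PSPH STRADA, MTMR3 and SNX19 (0.043 to 0.053), for PHGDH PDCD11, RABEPK and ANGEL1 (0.064 to 0.065), and for MTHFD2L HYCC1, UBL3 and AIDA (0.062 to 0.065). These libraries share depth and GC differences, so the differences are a description only.

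Other lists of the surrounding metabolism, chosen with earlier results of these data known, were read in the same fit. Of 12 genes of the ATF4 pathway, all 12 rose after FDX2 loss at 20% O2, where 17.6% of all tested genes rose, with a median log2 fold change of 1.77 beside 0.01 over all tested genes. CEBPB was at the edge of the threshold (edgeR, adjusted p = 0.0497). The count was 11 with the replicate block and with the stricter count filter, and 8 with a 2-fold minimum. It was also 11 with any compared library left out other than 20% O2 + Doxy replicate 1. The 3 that rose most were NUPR1 (3.90, SE 0.32), a stress-induced chromatin protein, DDIT3 (2.49, SE 0.060), which encodes CHOP, and ATF3 (2.29, SE 0.16), with adjusted p = 6.63e-06, 1.49e-09 and 1.86e-06 by edgeR. ATF4 itself rose at both oxygen levels, from 329 ± 20.0 to 438 ± 18.2 CPM at 20% O2 and from 293 ± 37.4 to 420 ± 35.4 CPM at 3% O2 (SD, n = 3), with log2 fold changes of 0.41 and 0.52 (edgeR, adjusted p = 0.00491 and 0.00722). At 3% O2 the list held 4 genes that rose and 1 that fell, where 4.2% of all tested genes rose and 3.11% fell, with a median of 0.27 beside 0.04. NUPR1 (1.93), DDIT3 (0.85) and ATF3 (0.65) rose there and VLDLR, a lipoprotein receptor, fell (-0.47), with adjusted p = 0.00917, 3.9e-05, 0.0347 and 0.00294 by edgeR. In a fit to the 6 libraries at 3% O2 alone 2 of the list passed. Without Doxy, 2 genes of the list were higher and 8 lower at 3% than at 20% O2, where 13.9% of all tested genes were higher and 11.9% lower, with a median of -1.53 beside 0.07. The 2 higher genes were DDIT4 (0.97) and VLDLR (0.27), with adjusted p = 0.000489 and 0.0174 by edgeR. With Doxy these 2 alone of the list passed, both higher at 3% O2 (2.71 and 1.27, edgeR, adjusted p = 3.01e-06 and 3.38e-06). There 1.63% of all tested genes were higher. The response differed between oxygen levels for 9 of the 12, all lower at 3% O2, where 4.08% of all tested genes had a lower response, among them ASNS (-2.13), the asparagine synthetase (edgeR, adjusted p = 0.00434). MYC passed the test in no comparison, and NFE2L2, a regulator of the antioxidant response that also acts on serine synthesis genes, fell with FDX2 loss at 3% O2 (-0.24, edgeR, adjusted p = 0.0237).

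Of 14 tested folate cycle genes, 1 rose and 7 fell after FDX2 loss at 20% O2, where 17.6% of all tested genes rose and 17.7% fell, with a median log2 fold change of -0.19 beside 0.01. The largest falls were those of SLC19A1 (-0.89), the reduced folate carrier, TYMS (-0.86), the thymidylate synthase, and FPGS (-0.49), which adds glutamates to folate (edgeR, adjusted p = 0.00668, 6.4e-07 and 0.0392). FTCD, a liver enzyme of histidine breakdown, rose by 1.58 from a mean of 0.269 CPM (edgeR, adjusted p = 0.0114). At 3% O2 3 genes of the list fell and 0 rose, where 3.11% of all tested genes fell, and TYMS (-0.33) and the methionine synthase MTR (-0.18) were among those that fell (edgeR, adjusted p = 0.0028 and 0.0197). This count of 3 was 5 without 3% O2 + Doxy replicate 3, 7 by DESeq2 and 7 after the GC correction, and 0 in fits to the 6 libraries alone. For TYMS the response also differed between oxygen levels (0.53, edgeR, adjusted p = 0.00165).

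Of 10 tested genes of glycine and serine use, 2 rose and 2 fell after FDX2 loss at 20% O2 (median log2 fold change -0.14), a share near the 35.3% of all tested genes that changed. The count of 4 was 8 without 20% O2 + Doxy replicate 3. SDSL (1.96), a serine dehydratase-like enzyme, and CTH (1.65), which makes cysteine from cystathionine, rose, while SFXN1 (-0.67), the mitochondrial serine transporter, and GCSH (-0.27), of the glycine cleavage system, fell (edgeR, adjusted p = 7.45e-07, 2.83e-07, 1.26e-05 and 0.0216). At 3% O2, where 7.31% of all tested genes changed, SDSL rose (1.11) and SFXN1 fell (-0.36), with adjusted p = 0.000408 and 0.00577 by edgeR. CTH stood at 6.29 ± 0.527 CPM with and 6.70 ± 0.461 CPM without Doxy at 3% O2, and its response differed between oxygen levels (-1.56, edgeR, adjusted p = 6.89e-05). Of 6 tested methionine cycle genes, AHCYL2 rose (0.67) and MAT2A (-0.47) and MTAP (-0.29) fell at 20% O2, where 35.3% of all tested genes changed, with a median of -0.08 (edgeR, adjusted p = 9.34e-06, 9.85e-05 and 0.00843). At 3% O2 AHCYL2 alone passed (0.29, edgeR, adjusted p = 0.0146), and 0 to 2 genes of the list with a library left out: 0 without 3% O2 + Doxy replicate 2 or 3% O2 wo Doxy replicate 2 or 3, and 2 without 3% O2 + Doxy replicate 3. Of 11 purine synthesis genes, which draw on the one-carbon units, 7 fell at 20% O2 and 0 rose, where 17.7% of all tested genes fell, with a median of -0.27. PFAS (-0.62), IMPDH1 (-0.60) and GMPS (-0.53) fell most (edgeR, adjusted p = 0.00431, 0.03 and 8.26e-05). At 3% O2, where 3.11% of all tested genes fell, GART alone fell (-0.17, edgeR, adjusted p = 0.0462), with 0 genes past the test without replicate 1 or 2 of 3% O2 + Doxy or replicate 2 or 3 of 3% O2 wo Doxy, and 3 without 3% O2 wo Doxy replicate 1.

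Proliferation genes also differed between the conditions. Of 10, 9 fell after FDX2 loss at 20% O2, where 17.7% of all tested genes fell, with a median log2 fold change of -0.85, led by MKI67 (-1.37), CCNB1 (-1.16) and CCNA2 (-1.08). At 3% O2, where 3.11% of all tested genes fell, 5 fell with a median of -0.28 (2 without 3% O2 + Doxy replicate 2). MKI67 stood at 578 ± 8.90, 223 ± 1.52, 655 ± 75.1 and 436 ± 8.35 CPM in 20% O2 + Doxy, 20% O2 wo Doxy, 3% O2 + Doxy and 3% O2 wo Doxy (SD, n = 3). The part of proliferation in the members' changes was not tested.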

How the data were processed

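RNA-seq was performed on 12 libraries of FDX2-iKO ES2 cells, 3 per condition. The authors made poly(A) libraries and read both ends of the fragments. Alignment used STAR and GRCh38, and counting featureCounts, per the submitters' processing notes. The deposited values are raw counts per gene and library, with no normalization and no pooling. Tool versions, the annotation, the strand option and the handling of reads that align repeatedly are not given in the sources used here. The submitters state that a read file of replicates 1 and 2 of 20% O2 + Doxy was later lost, while their counts were kept. All 58735 identifiers match GENCODE 29 (58207 with a symbol), which gave positions, overlaps and GC content. Counts of 14 pseudogenes named after members were at most 2 in any library.

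The tests used R 4.3.3, edgeR 4.0.16 (filterByExpr, minimum count 10 and total 15, which kept 16891 of 32966 genes with a count; TMM; 1 quasi-likelihood model of 4 condition means, 8 residual degrees of freedom, common biological coefficient of variation 16.3%) and DESeq2 1.42.0. A gene was called at a Benjamini-Hochberg adjusted p under 0.05 over all genes tested. Totals of 24958386 to 34313637 counts per library leave the spread between replicates as the limit for members, whose lowest count in any library was 332. The p-values measure the spread between these libraries. The steps were tested on simulated counts.

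The members and lists were chosen with earlier results of these data known. Named are all members, FDX2, in each list and comparison up to 3 genes that rose and 3 that fell most among those past the threshold, the 3 nearest profiles of each member among genes that average 5 CPM or more, and member pseudogenes; ATF4, MYC and NFE2L2 form a list of their own. The MTHFD2/MTHFD2L ratio was added later. Values of some genes of the lists are not reported here.

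Alternatives were scaling by DESeq2's size factors, keeping every gene with a count, keeping genes with 10 or more counts in each library, a replicate block, a fit to the compared libraries alone, both together, each library left out, DESeq2's Wald test, a 2-fold minimum and, added after the data were seen, removal of each library's trend with transcript GC content (lowess, span 0.3), for 3% against 20% O2 without Doxy also with the block. The labels do not say whether same-numbered replicates are paired. Across genes, deviations of same-numbered libraries from their conditions correlated at 0.355, 0.245 and 0.351 between 20% and 3% O2 wo Doxy. In no other pair of conditions were all 3 above 0.1. Libraries with different numbers correlated at up to 0.817 (20% O2 + Doxy replicate 1 with 3% O2 + Doxy replicate 3), so these values do not establish a pairing.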

Additional observations from a re-analysis of the deposited data

Results flagged for a closer look

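The response to FDX2 loss differed between 3% and 20% O2, by the interaction term, for 3 members. The difference was -1.54 on the log2 scale for ALDH1L2, -0.80 for PSAT1 and -0.59 for MTHFD2 (edgeR, adjusted p = 1.98e-05, 0.000531 and 0.00257). ALDH1L2 and PSAT1 rose after FDX2 loss at 20% O2 and fell at 3% O2, and MTHFD2 rose at 20% O2 and did not pass edgeR's test at 3% O2. The fall of ALDH1L2 at 3% O2 no longer passed in 10 of 14 alternatives, among them each with a compared library left out. That of PSAT1 no longer passed in 2. For the interaction term, the call of ALDH1L2 alone held with a 2-fold minimum. The 3 interaction calls held under the 18 other alternatives recomputed for each gene, with ranges of -1.61 to -1.42 for ALDH1L2, -0.85 to -0.69 for PSAT1 and -0.65 to -0.47 for MTHFD2.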

How the results depend on the processing

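Of 750 member fold changes recomputed under an alternative, 661 kept their direction and their side of the threshold, 30 passed newly, 29 no longer passed and 30 changed sign. Of the 29, 21 belonged to FDX2 loss at 3% O2. Some alternatives used fewer libraries, and the cause of these changes was not tested.

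The count of members called was 6 for FDX2 loss at 20% O2 (1 with a 2-fold minimum) and 3 for FDX2 loss at 3% O2, where it was 0 with a 2-fold minimum, 1 without a filter, 1 with a replicate block, 0 in the 6 libraries without and 0 with the block, 6 by DESeq2, 5 after the GC correction and 1 to 2 with a library left out. For 3% against 20% O2 it was 0 with Doxy (1 after the GC correction) and 4 without Doxy (1 with a 2-fold minimum), and 3 for the difference of the responses (1 with a 2-fold minimum, 5 after the GC correction). The replicate block, for which the labels state no pairing, changed no member's call for 3% against 20% O2 without Doxy in the 12 libraries.

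Over all genes, a 2-fold minimum left 910 of 5961 calls for FDX2 loss at 20% O2, 118 of 1235 for FDX2 loss at 3% O2, 92 of 341 and 451 of 4360 for 3% against 20% O2 with and without Doxy, and 186 of 1231 for the difference. With no filter the counts were 678 for FDX2 loss at 3% O2 and 672 for the difference. With the replicate block they were 676 for FDX2 loss at 3% O2, 218 for 3% against 20% O2 with Doxy and 615 for the difference. In the 6 libraries compared they were 218 and 128 for the same first 2 comparisons, and 1 and 12 with the block. DESeq2 gave 1943, 600 and 1877 for these 3, and the GC correction 2457, 868 and 2718. With a library left out they were 581 to 1605 for FDX2 loss at 3% O2, 190 to 388 and 2321 to 4200 for 3% against 20% O2 with and without Doxy, and 520 to 2191 for the difference.

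These log2 values changed sign. SHMT2 after FDX2 loss at 20% O2 was 0.0091 with at least 10 counts in every library, 0.00068 in the 6 libraries, 0.0041 there with the block and 0.089 after the GC correction, and -0.074 to 0.049 with a library left out. For 3% against 20% O2 with Doxy, SHMT2 was -0.0035 with no filter, and the GC correction gave -0.0084 for SHMT1, -0.023 for SHMT2 and -0.016 for MTHFD1L. With a library left out the log2 fold changes of that comparison were -0.13 to 0.067 for PHGDH, -0.017 to 0.12 for PSPH, -0.029 to 0.069 for SHMT1, -0.053 to 0.067 for SHMT2 and -0.031 to 0.072 for MTHFD1L. For FDX2 loss at 3% O2 they were -0.12 to 0.0020 for PHGDH and -0.018 to 0.12 for PSPH. For 3% against 20% O2 without Doxy MTHFD1 was -0.0075 to 0.062 with a library left out, and MTHFD2L 0.096 after the GC correction and 0.083 with the block added. The difference of the responses of MTHFD2L was 0.15 after the GC correction and -0.11 to 0.089 with a library left out.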
